A study of Mus musculus with 44 samples.

Results

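The 24 cells described here are the mouse cells whose treatment field reads as cultured without megakaryocytes, out of 44 single cells in the table. They were taken by that field alone, and no measured value chose them. Neonatal calvarial cells from C57BL/6J mice, 100000 per culture, had been kept for 16 h in medium with serum, with no megakaryocytes (0) added to this group. Cells positive for CD45 and F4/80 and negative for CD41 were sorted and captured on plate 3 of a Fluidigm C1 system, which isolates single cells in chambers, and their full-length cDNA was sequenced. Their titles nevertheless carry the abbreviation for a culture with megakaryocytes, against the treatment field, and no label names the animal or culture a cell came from. The 24 cells therefore count as 1 sample, cells are numbered 1 to 24 only as names, and no value below has a replicate check or a p-value.

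The calvaria is the flat bone of the skull vault, and cells freed from it in newborn mice include osteoblasts, fibroblast-like stromal cells and macrophages. Stromal cells build the extracellular matrix: fibrillar collagen is bound by small proteins such as Sparc and biglycan, and is crosslinked outside the cell by lysyl oxidase. The same cells contract through actin and myosin, and secrete chemokines that draw in blood cells. The sort label of these cells, osteomacs, is the name for macrophages that lie on bone surfaces.

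Values are CPM, reads of a gene per 1000000 reads of the cell's library. They compare cells within a gene and are not corrected for gene length, so levels of different genes are not compared. Libraries held from 270537 to 714465 reads, with a median of 527930. Between 1946 and 2837 of the 3613 listed genes had a read in a cell, and listed genes took from 58.9% to 69.7% of its reads. No 2 cells looked like copies of each other, the closest pair having a Spearman correlation of 0.687 over genes. Reads carry no molecular identifiers, so intervals below cover counting error only, and are narrower than the error of the molecules behind them.

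The label and the transcripts pointed to different cells. Lox, which encodes lysyl oxidase, was read in all 24 cells, from 169 CPM in cell 9 through a median of 2539 to 5718 CPM in cell 15 (mean 2617 ± 1787 CPM, SD over cells, n = 24). Sparc, a collagen-binding matrix protein, ranged from 38.03 CPM in cell 14 through 4419 to 42797 CPM in cell 13 (mean 5930 ± 8269 CPM, SD, n = 24). Cell 14 and cell 6, at 378 CPM, lay far below the other cells in Sparc, and cell 13 far above. Cald1, which encodes the actin- and myosin-binding protein caldesmon, ranged from 74.16 CPM in cell 14 to 2910 CPM in cell 22 (mean 1352 ± 733 CPM, SD, n = 24). Bgn, which encodes biglycan, was read in 23 cells and reached 5521 CPM in cell 9. Cell 21 had no Bgn read, which at its depth allows a level of up to 4.30 CPM (3 reads). Cells 21 and 14 (64.65 CPM) were the lowest for Bgn, and cell 14 was also the lowest for Sparc and Cald1 while its Lox stood at 4136 CPM.

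Genes of the sorted surface proteins were nearly absent. Ptprc, which encodes CD45, had 1 read, in cell 7, and Adgre1, which encodes F4/80, had 1 read, in cell 15. Of 31 macrophage and leukocyte genes 30 were listed, and none reached a mean of 20 CPM. Fcgr1, Fcgr3, Cd52, C1qb, C1qc and Aif1 had no read in 12415448 library reads, which allows a pooled level of up to 0.242 CPM each. Summed over the list, cells held from 0 CPM in cell 12 through a median of 19.5 to 326 CPM in cell 2. Cell 21 came next at 320 CPM, and its 213 reads of Cd74 were the only ones in the set (Cd74 encodes the invariant chain of class II antigen presentation). The label osteomac is therefore not borne out by these transcripts, and the cells are called stromal-like from Lox, Sparc, Cald1 and Bgn. Cells 2, 14 and 21 are the weakest cases, with the lowest sums of these markers (3930, 4313 and 5316 CPM, against a median of 9412 CPM). No gene of the chondrocyte, endothelial, erythroid or lymphoid lists was listed. The megakaryocyte list was covered by Pf4 alone, with a summed 6 reads.

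**Figure D1:**
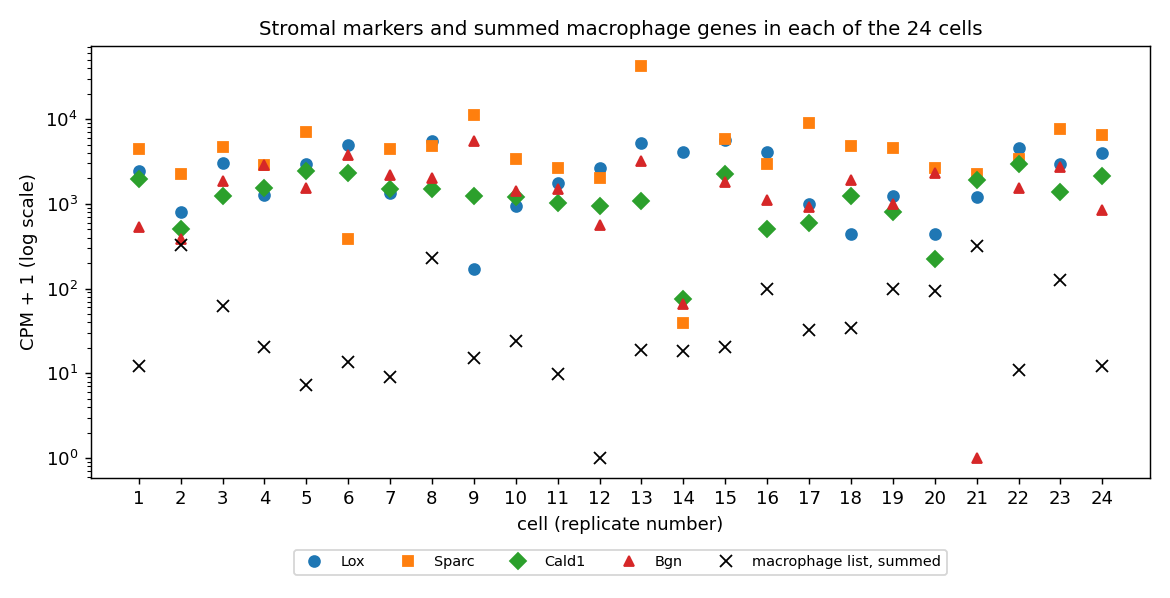
Level of Lox, Sparc, Cald1 and Bgn and the summed level of the macrophage and leukocyte list (crosses) in each of the 24 cells, as CPM + 1 on a log axis. Most marker points lie above the crosses, which run from 0 to 326 CPM. Low marker points include Sparc, Cald1 and Bgn in cell 14, Bgn in cell 21, Lox in cell 9 and Cald1 in cell 20.

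Transcripts present throughout were a minority of the list. Of the 3613 genes, 761 were read in every cell, 1217 in 18 to 23 cells, 646 in 12 to 17, 861 in 1 to 11, and the rest in none. With each cell thinned to 270000 library reads, 677 genes were read in every cell. With at least 10 reads asked of every cell the number was 398, and without cells 9, 14, 18 and 21, which stand apart below, it was 998.

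Steady genes were counted as those whose SD over the cells was under 0.5 of the mean, among genes with a mean of at least 20 CPM. This held for 214 of 2638 genes, or 8.11%, against a median ratio of SD to mean of 1.1. The share was 3.0% of the 1332 genes at 20 to 100 CPM, 8.61% of the 1069 genes at 100 to 500 CPM and 34.6% of the 237 genes at 500 CPM or more, so the count follows the level. Cytosolic ribosomal protein genes, the parts of the translating ribosome, made up 42 of the 214, and 42 of the 51 ribosomal genes with enough reads were steady. Many have near-identical processed copies in the genome, and how reads were divided among copies is not given in the sources used here.

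Rpl32, a protein of the large ribosomal subunit, had the smallest ratio of SD to mean of all, 0.186, and ranged from 195 CPM in cell 21 through a median of 291 to 413 CPM in cell 6. Eef1a1, the factor that brings charged tRNA to the ribosome, followed at 0.234 and ranged from 1198 CPM in cell 21 to 3698 CPM in cell 4. In both genes cell 21 was the lowest cell. Others among the 12 genes with the smallest ratios were Rplp0, Rps3, Rpl7, Rps3a1 and Rps26 of the ribosome, Ptges3, a cochaperone of Hsp90, Myl12a, a regulatory light chain of myosin, and H3f3b, which encodes histone H3.3. Heat shock genes, the chaperones of folding in the cytosol and mitochondria, were steady in 4 of 7 cases, against 8.11% over all genes with enough reads. With only 7 members and a share that follows the level, this count is not read as a trait of the list. Among the heat shock genes, Hsp90ab1 had a ratio of 0.325 and a range of 1331 to 6478 CPM. No gene of the matrix list, at 0 of 10, was steady. Nor was any of the chemokine and cytokine list, at 0 of 6 with enough reads (Ccl2, Ccl7, Cxcl16, Ptgs2, Il1rl1 and Hbegf). The share over all genes was 8.11%, so with so few members a count of 0 does not set these lists apart.

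**Figure D2:**
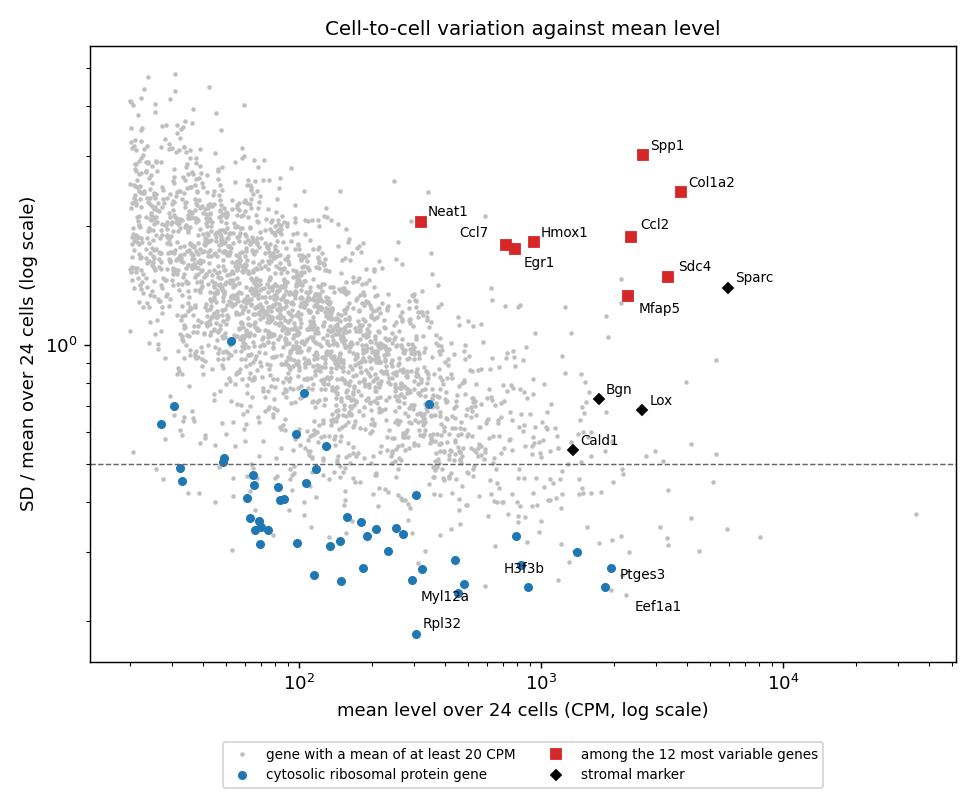
Ratio of the SD to the mean over the 24 cells (log axis) against the mean level in CPM (log axis) for the 2638 genes with a mean of at least 20 CPM. The dashed line marks the ratio of 0.5. Ribosomal protein genes (blue) lie mostly below it, and 9 of the 12 most variable genes (red), with Spp1 at 3.01, lie far above genes of like level.

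Variable genes were ranked by how far the squared ratio of SD to mean lay above that of the genes nearest in level. Each gene's own highest cell was left out, so that 1 cell could not place a gene in the ranking. Of 2434 genes ranked, the 12 highest were Spp1, Ccl2, Hmox1, Col1a2, Ccl7, Egr1, Neat1, Met, Timp3, Fgfr1op, Sdc4 and Mfap5. Of these, 6 encode secreted proteins (Spp1, Ccl2, Col1a2, Ccl7, Timp3 and Mfap5) and 2 encode proteins of the cell surface (Met and Sdc4). The highest level of the 12 fell in 8 different cells, with 3 in cell 13 and 2 each in cells 6 and 9.

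Spp1 encodes osteopontin, a phosphoprotein of bone matrix that is also secreted by other cell types. It lay at 33893 CPM in cell 13, 19682 CPM in cell 17 and 9002 CPM in cell 19, while the other 21 cells lay between 0 and 316 CPM, with a median over all cells of 6.93 CPM. The gap between the third and the fourth cell was thus wider than the whole range of the lower 21.

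Col1a2, which encodes a chain of type I collagen, had its highest level in the same cell, with 44844 CPM in cell 13, 12266 CPM in cell 17 and 9764 CPM in cell 9. The median was 1138 CPM, and cell 21 was lowest at 2.87 CPM, the value of 2 reads. Cell 13 held 56.1% (55.6% to 56.5%, exact 95% interval) of all Col1a2 reads and 57.9% (57.4% to 58.4%) of all Spp1 reads. Without it the mean of Col1a2 was 2013 CPM in place of 3798 CPM, and that of Spp1 1279 CPM in place of 2638 CPM.

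**Figure D3:**
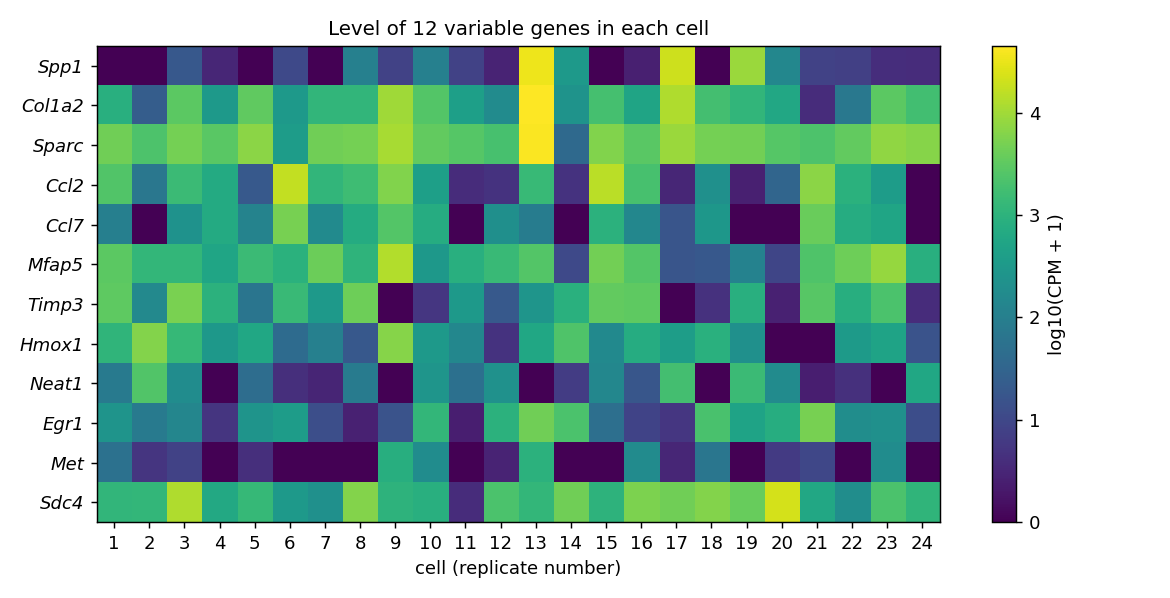
Level of 11 of the 12 most variable genes and of Sparc (rows) in each of the 24 cells (columns), coloured by log10(CPM + 1). Spp1 is brightest in cells 13, 17 and 19, Ccl2 and Ccl7 in cells 6, 15, 21 and 9, and Hmox1 in cells 9 and 2. On this log scale some other cells are nearly as bright, among them cells 22, 10 and 8 for Ccl7.

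Col1a2 and Sparc varied together across the cells, by rank more closely than any other pair searched. Their Spearman correlation was 0.898 over 24 cells, the highest of 1783216 pairs among 1889 genes, and it ran from 0.884 to 0.918 when each cell was left out in turn. Pearson's correlation of log2(CPM + 1) was lower, at 0.553, with cells 14, 6 and 21 far off the line of the others. Such correlations are descriptions: the cells share a plate and a depth range, the pair was picked as an extreme, and the middle of all pairs is near 0 (median 0.0213, 5th to 95th percentile -0.341 to 0.381 over 1955253 pairs of 1978 genes). Col1a2 lies on chromosome 6 (mm10, 4504814 to 4541544, plus strand) and Sparc on chromosome 11 (55394500 to 55423183, minus strand), both protein-coding genes. Cells 13, 17 and 9 were the top 3 for both genes, but the bottom differed, since Col1a2 was lowest in cells 21 and 2 and Sparc in cells 14 and 6.

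The relation did not extend evenly through the matrix genes. Of 44 on the matrix list 10 were listed, and the 28 pairs among the 8 genes read in at least 18 cells had a median correlation of 0.202, with 21 pairs above 0. Col1a2 and Col3a1, which encodes type III collagen, gave 0.551, the highest within the list, and Col3a1 reached its own highest level, 3221 CPM, in cell 10. Mfap5, a protein of elastic microfibrils, was highest in cell 9, at 13246 CPM, then in cell 23, at 8154 CPM, and lowest in cell 20, at 8.43 CPM. Thbs1, the adhesive protein thrombospondin 1, was highest in cell 15 at 19197 CPM. Postn, which encodes periostin, was highest in cell 23 at 4316 CPM and stood closest to Acp1, a phosphatase (0.777). The matrix genes thus peaked in different cells: of these 5, Col1a2 in cell 13, Col3a1 in 10, Mfap5 in 9, Thbs1 in 15 and Postn in 23.

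Genes of the contractile apparatus varied together weakly. All 14 listed contractile genes were read in at least 18 cells, and 5 of them were steady. The steady share was 8.11% over all genes with enough reads and 34.6% of those at 500 CPM or more. A count of 5 of 14 therefore does not set this list apart. Of the 91 pairs of contractile genes 68 were above 0 (median 0.169, against 0.0213 over all pairs of genes). The closest pair within the list was Actn4 and Flna (0.651). Cald1 is not on this list. Its closest partners, picked from the 1889 genes searched, were Actn1, an actin crosslinker of stress fibres (0.746), and Actb, the cytoplasmic beta-actin (0.716). Actb itself was among the steadier genes (ratio 0.373), from 15612 CPM in cell 2 to 74964 CPM in cell 24. Actb shares long stretches with Actg1, and how reads were divided between them is not given in the sources used here. Acta2, the smooth muscle actin found in contractile fibroblasts, varied far more (ratio 1.30). It had reads in 20 cells, reached 2884 CPM in cell 10 and 2108 CPM in cell 15, and was at 0 in cells 9, 14, 19 and 20. Summed contractile levels ran from 21007 CPM in cell 2 to 85258 CPM in cell 24, most of it Actb.

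**Figure D4:**
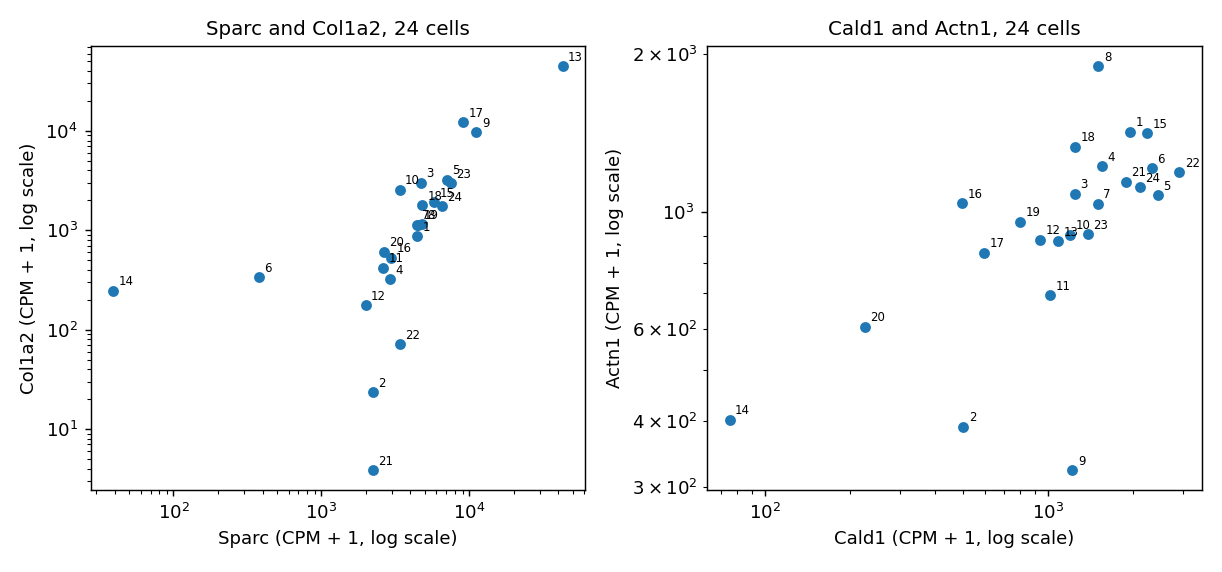
Col1a2 against Sparc (left) and Actn1 against Cald1 (right) in the 24 cells, numbered, all as CPM + 1 on log axes. In the left panel cells 13, 17 and 9 are at the upper right and cells 21, 2, 14 and 6 fall off the line. In the right panel cell 14 is lowest in Cald1 and cell 9 lowest in Actn1.

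The chemokines Ccl2 and Ccl7, which both attract monocytes, were high in overlapping cells. Ccl2 reached 16523 CPM in cell 6, 14493 CPM in cell 15, 7099 CPM in cell 21 and 5983.5 CPM in cell 9, with a median of 562 CPM and 0 in cell 24. Ccl7 reached 5048 CPM in cell 6, 3873 CPM in cell 21, 2537 CPM in cell 9 and 955 CPM in cell 15, with a median of 184 CPM. The same 4 cells were thus the top 4 for both. Their correlation over the 24 cells was 0.755 (0.721 to 0.799 with each cell left out), and the 2 genes are neighbours on chromosome 11 (82035571 to 82037453 and 82045712 to 82047525, plus strand, mm10). Ccl2 also moved with Mfap5 (0.593) and with Timp3, an inhibitor of metalloproteases (0.560), and against the long noncoding RNA Neat1 (-0.457). Il1rl1, the receptor for interleukin 33, followed another order and was highest in cell 18 at 12054 CPM. Ccl3, Ccl4, Ccl5 and Ccl9, chemokines made mainly by blood cells, had reads in only 2 or 3 cells and never above 3.70 CPM.

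Timp1, a secreted inhibitor of metalloproteases, was read in all 24 cells and stood at 15399 CPM in cell 14, with cell 3 next at 5379 CPM, a median of 1461 CPM and a lowest value of 38.1 CPM in cell 9. Its level was closest to that of Ece1, the endothelin-converting enzyme (0.809). Timp3 reached 5210 CPM in cell 3 and 4259 CPM in cell 8 and was at 0 in cells 9 and 17. Sdc4, a cell-surface heparan sulphate proteoglycan, reached 22372 CPM in cell 20 and 12474 CPM in cell 3 and was lowest in cell 11 at 2.96 CPM. Hbegf, a growth factor of the epidermal growth factor family, was more even (ratio 0.541), and was closest to Lnp (0.722), with Ece1 (0.657) and Sdc4 (0.642, and 0.339 by Pearson's correlation of log2(CPM + 1)) after it.

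Genes of the endoplasmic reticulum stress list moved together in part. This list holds chaperones and folding enzymes that the unfolded protein response is known to raise. Of 24 genes 15 were listed and 13 were read in at least 18 cells. Of the 78 pairs among these 13, 65 were above 0 (median 0.262, against 0.0213 over all pairs of genes). Hspa5, the main chaperone of the compartment, reached 9647 CPM in cell 19 and 5229 CPM in cell 14, with a median of 1251 CPM and a lowest value of 359 CPM in cell 4. Hsp90b1, its Hsp90-type chaperone, reached 4859 CPM in cell 11, 4655 CPM in cell 16 and 4492 CPM in cell 19, and was lowest in cell 9 at 50.02 CPM. The closest pair within the list was Manf, a secreted resident of the compartment, with Pdia6, a disulphide isomerase (0.755), and both were highest in cell 11. Summed over the list, cell 19 had 27881 CPM, cell 11 had 19998 CPM and cell 14 had 19565 CPM, against a median of 8115 CPM and 5323 CPM in cell 21. The sums had a Spearman correlation of 0.122 with library reads and -0.0357 with genes read. Ddit3, a stress transcription factor of the same list, was highest at 486 CPM in cell 9, 445 CPM in cell 14 and 398 CPM in cell 21.

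Promoters of 4 genes of this list are shown because they hold a known element of the unfolded protein response. Correlations among these 4 are not given. Their highest levels fell in cell 19 (Hspa5), cell 11 (Hsp90b1 and Pdia6) and cell 6 (Creld2). The bases are the 250 before the start site on the gene's own strand, from RefSeq on GRCm38.p6. Capitals mark each match to the endoplasmic reticulum stress element, CCAAT followed by any 9 bases and then CCACG, searched on both strands. Hspa5 is at chr2:34771840-34772089 (plus strand), Hsp90b1 at chr10:86705445-86705694 (minus strand), Creld2 at chr15:88819396-88819645 (plus strand) and Pdia6 at chr12:17266339-17266588 (plus strand).
Hspa5: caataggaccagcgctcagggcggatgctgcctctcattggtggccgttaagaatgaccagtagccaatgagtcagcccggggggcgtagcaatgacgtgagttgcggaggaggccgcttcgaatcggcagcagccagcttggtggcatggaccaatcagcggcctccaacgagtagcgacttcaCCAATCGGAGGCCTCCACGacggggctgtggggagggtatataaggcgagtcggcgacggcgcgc
Hsp90b1: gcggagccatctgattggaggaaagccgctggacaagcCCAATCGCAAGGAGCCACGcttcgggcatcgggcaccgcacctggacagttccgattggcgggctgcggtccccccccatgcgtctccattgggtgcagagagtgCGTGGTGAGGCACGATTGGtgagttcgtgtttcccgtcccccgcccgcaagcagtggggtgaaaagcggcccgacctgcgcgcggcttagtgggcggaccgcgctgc
Creld2: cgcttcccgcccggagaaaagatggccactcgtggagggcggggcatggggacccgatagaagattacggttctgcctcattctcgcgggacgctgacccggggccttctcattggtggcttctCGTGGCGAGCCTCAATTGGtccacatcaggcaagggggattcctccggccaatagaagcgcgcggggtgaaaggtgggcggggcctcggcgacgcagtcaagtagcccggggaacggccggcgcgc
Pdia6: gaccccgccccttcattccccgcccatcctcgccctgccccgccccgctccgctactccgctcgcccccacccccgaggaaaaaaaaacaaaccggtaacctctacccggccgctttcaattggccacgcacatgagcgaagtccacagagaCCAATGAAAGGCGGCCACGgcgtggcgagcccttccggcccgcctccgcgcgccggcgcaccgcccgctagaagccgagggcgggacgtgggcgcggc
In Hspa5 the match begins 65 bases before the start site. Hsp90b1 holds 1 match on each strand, and the Creld2 match lies on the opposite strand. Of the 13 listed genes of this list with a promoter in the table, 7 held the element (these 4 with Calr, Canx and Dnajc3), against 8 of 2814 listed genes (0.284%) and 37 of 32851 promoters (0.113%). Canx held it and was steady, at a ratio of 0.364, whereas Creld2 held it and had a ratio of 1.40. The list was made of genes that the unfolded protein response is known to raise. Its share of promoters with the element therefore follows from the make-up of the list and says nothing about these cells. The element was chosen after the levels had been seen, and a match is a run of letters, not shown to be a bound site.

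Genes of the oxidant and metal defence list were highest in cells 9 and 2. Hmox1 encodes haem oxygenase 1, which breaks down haem. It stood at 6322 CPM in cell 9 and 6023 CPM in cell 2, then at 2314 CPM in cell 14, with a median of 331 CPM and no read in cells 20 and 21. Srxn1, which repairs overoxidised peroxiredoxins, stood closest to Hmox1 (0.757) and reached 4135 CPM in cell 9 against a median of 112 CPM. Cell 9 was also the highest for Gclm, Slc7a11, Fth1, Ftl1 and Prdx1, and so for 7 of the 12 listed genes. Over all 2638 genes with a mean of at least 20 CPM it was the highest for 188. Cell 9 held 379 of the 758 reads of Slc7a11, the cystine importer. Summed over the list, cell 9 had 22169 CPM and cell 2 had 17378 CPM against a median of 5645 CPM. Cell 2 was highest for Sqstm1, an autophagy receptor (1212 CPM), for Ptgs2, the inducible cyclooxygenase (3534 CPM), and for Neat1 (2466 CPM). Cells 9 and 2 differed otherwise: cell 9 had the fewest genes read, 1946, and cell 2 the most library reads, 714465.

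Immediate early genes, which respond within minutes to signals and to handling, did not move as 1 block. Egr1 was highest in cell 21, at 5031 CPM, and cell 13, at 4403 CPM, with a median of 204 CPM. Fos was highest in cell 11, at 1344 CPM, where Egr1 was at its lowest, 1.48 CPM. Cell 21 was the highest for Egr1, Jun, Atf3 and Zfp36, and its list sum, 7218 CPM, was the highest. The sums had a Spearman correlation of -0.575 with genes read, and the part of the number of genes read in this list was not tested. The median pair correlation of the list, 0.0624, became -0.01506 without cells 9, 14, 18 and 21.

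Housekeeping pathways showed weak common variation. Glycolysis genes had the highest median pair correlation of the lists, 0.316 over 9 genes, with Ldha and Pgk1, both enzymes of glycolysis, at 0.675. It was 0.1275 without cells 9, 14, 18 and 21. Cell 4 was the highest for Gpi1, Aldoa, Tpi1, Pgk1, Pkm and Ldha, 6 of the 10 genes listed, and Ldha was lowest in cell 21, at 40.1 CPM, with cell 19 next at 387 CPM. Ribosomal protein genes had a median of 0.265 over 59 genes, which stayed at 0.268 without those cells, and respiratory chain genes 0.155 over 50. Summed ribosomal levels ran from 8827 CPM in cell 21 through 13853 to 21218 CPM in cell 6. Translation factors (0.0313) and splicing factors (0.0391) lay close to the median of all pairs.

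Genes of proliferation, signalling and the blood niche were read at uneven levels. Of 36 cell cycle genes 5 were listed, and Cdk4 was steady (ratio 0.440), whereas Ccnd1, a cyclin of the first growth phase, ranged from 0 to 893 CPM. Id2 and Id3, inhibitors of differentiation that respond to bone morphogenetic proteins, had their highest levels in cell 14 (1698 CPM) and cell 11 (1533 CPM). Emb, which encodes the adhesion protein embigin, had reads in 16 cells (mean 94.4 CPM, highest 502 CPM in cell 13). Alcam, the adhesion protein CD166, had reads in 19 cells (mean 189 CPM, highest 1257 CPM in cell 18 and 786 CPM in cell 12). Igf1 was highest in cell 9, at 1617 CPM, and Kitl, the stem cell factor, in cell 21, at 416 CPM, with no Kitl read in 14 of the 24 cells. Of the 18 interferon-stimulated genes listed, 6 had no read in any cell and 2 reached a mean of 20 CPM. These were Ifitm3, a membrane protein that hinders virus entry, read in 23 cells (mean 141.66 CPM), and Irf1, a transcription factor, read in 8 (mean 24.3 CPM).

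Among all pairs searched, 21 had a correlation above 0.8 and 17 below -0.8. After Col1a2 with Sparc came Mrpl15, a mitochondrial ribosomal protein, with Tubb5, a tubulin (0.868, and 0.553 by Pearson's correlation of log2(CPM + 1)). Atp6v1e1, of the proton pump that acidifies lysosomes, and Hexa, a lysosomal enzyme, stood at 0.835, and Nudc and Ruvbl1 at 0.822. The lowest pair was Ndufb8, of respiratory complex I, with Tmem65 (-0.843). Of the stromal markers other than Sparc and Cald1, Lox stood closest to Cnot6l (0.648) and Bgn to Wrb (0.643). Both are far lower than the Col1a2 and Sparc value. None of the 88 named pairs changed sign under any of the alternatives tried. They were picked as extremes of the search or of a chosen gene's partners, so a change of sign was unlikely from the start. Their size was less stable. With Pearson's correlation of log2(CPM + 1), 66 of the 88 moved outside the range from leaving out each cell in turn. Without the 4 cells farthest along component 1, described below, 48 did so. After thinning to 270000 library reads 26 did, and 1 when scaled to listed reads.

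A principal component analysis of log2(CPM + 1) over the 1978 genes read in at least 18 cells set 4 cells apart. Component 1 held 11.6% of the variance, component 2 8.27% and component 3 7.29%. Cells 9, 21, 14 and 18 scored 87.4, 71.0, 63.5 and 50.4 on component 1, and cell 6 scored 11.2, while the other 19 cells scored below 0. These cells also had few genes read, from 1946 to 2112, and cell 6 had 2034. Component 1 had a Spearman correlation of -0.847 with genes read (-0.886 after thinning) and of -0.0591 with library reads. Cell 21 was the plainest case, with 697872 library reads, among the deepest libraries, and 2092 genes read. The part of the number of genes read in component 1 was not tested.

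The genes behind component 1 were mostly ones that these cells lacked. Zfp948, a zinc finger protein, Fbln2, the matrix protein fibulin 2, Erp44, a folding protein, Cs, citrate synthase, Emc1, Elp2, Cdr2l and Cyb5r3 had the 8 most negative loadings, from -0.0796 to -0.0690. Their size was larger than that of the positive ones, the highest of which was Ascc3 at 0.0431, followed by Phf20l1, Gadd45g, Ppp1r10, Rnd3, Inpp4a, Rhob and Sppl3. Fbln2 ranged from 1.90 to 2306 CPM over the cells. Component 2 set cells 11, 9 and 6, at 66.7, 54.6 and 53.4, against cell 21, at -61.3. Bgn was among its 8 highest loadings (0.0564), and cell 21 had no Bgn read.

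**Figure D5:**
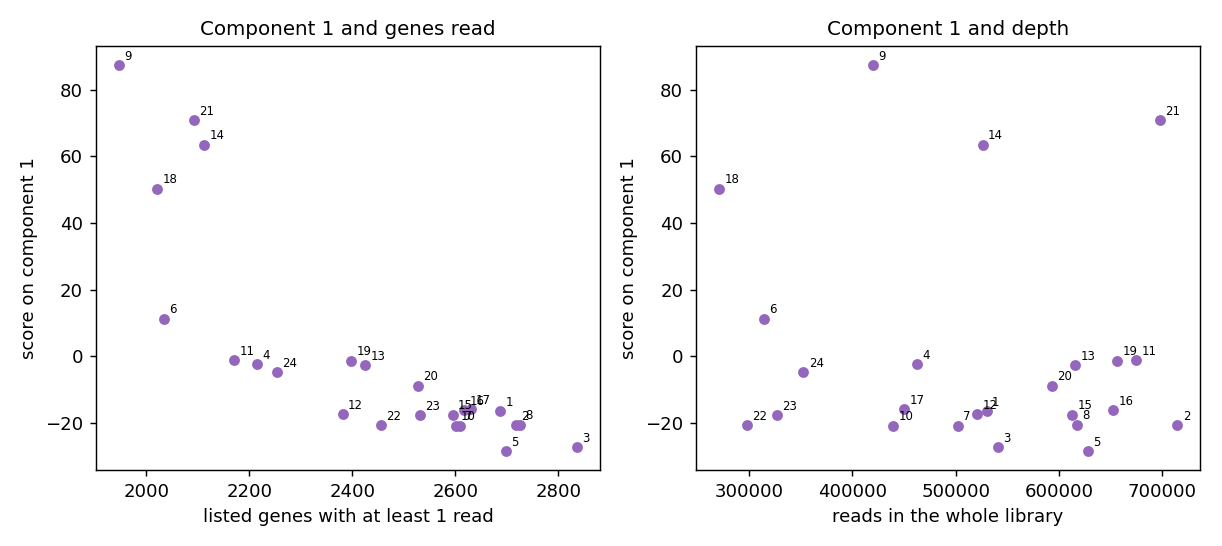
Score on component 1 against the number of listed genes read (left) and against library reads (right) in the 24 cells, numbered. Cells 9, 21, 14 and 18 lie at the top left of the left panel, while in the right panel they spread from 270537 to 697872 library reads.

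Cells with fewer genes read were also less like the others. The median Spearman correlation of a cell with the other 23 over genes ran from 0.396 in cell 9 and 0.405 in cell 21 to 0.572 in cells 3 and 5, and itself correlated with genes read at 0.93 across cells. Of the 2638 genes with a mean of at least 20 CPM, cell 6 had the most at their highest level, 205, then cell 9 with 188 and cell 11 with 178. Cells 6, 9 and 11 had 314404, 419823 and 674651 library reads, and the part of depth in these counts was not tested. The fewest genes at their highest level, 31, were in cell 8.

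Some transcripts had most of their reads in 1 cell. Among 2163 genes with at least 500 reads, 35 (1.62%) had over 50% of their reads in a single cell, and 28 of these 35 were in 5 cells. Cell 21 held 9, led by Tank, a regulator of TRAF signalling (1747 CPM against at most 458 in another cell), with Yaf2 and Cxcl16 next. Tnfaip3, a brake on NF-kappa B signalling, had 92.2% (89.5% to 94.4%) of its 500 reads there, and Cxcl16, a transmembrane chemokine, 70.0% (67.1% to 72.9%). Cell 11 held 8, led by Wasl, an activator of actin branching (912 CPM), Map3k3 (937 CPM) and Men1, the menin gene (725 CPM). Cell 13 held 4, among them Col1a2, Spp1 and Cd200. Cell 14 held 4, led by Pak1, a kinase of the cytoskeleton (1057 CPM), Trim33 and Taf1a, and cell 19 held 3, Gpalpp1, Dck and Pip5k1c. With at least 100 reads asked in place of 500, the number was 211. Of the 35 genes, 9 had reads in at least 18 cells, Col1a2 and Spp1 among them.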

How the data were processed

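The deposited table gives a signal per gene and cell, made by the authors with mm10 and Seurat per the submitters' processing notes. No source used here names the aligner or counter. Each deposited value equals reads × 1e+09 / (library reads × a whole number per gene), a form worked out from the values. All 99807 values above 0 gave whole reads (tolerance 0.0001). As a check, whole numbers worked out on the remaining 20 cells were applied to 2204 genes here, and all 42183 values came out whole. That whole number did not follow gene length (Spearman -0.019 with summed exon length over 3478 genes, -0.025 with genomic span over 3435). It ran from 1 (474 genes, among them Lox and Sparc) to 32329 for Fth1, and what it stands for is not stated. It sets deposited values of different genes on different scales. CPM was computed from the recovered reads, so it is inferred. The design had foreseen counts.

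The named genes are Lox, Sparc, Cald1, Bgn, Emb, Alcam, Ptprc and Adgre1, with 12 steady and 12 variable genes. To these the rule adds genes held mostly by 1 cell, component loadings, the closest and most opposed pairs, partners of 16 anchor genes, and the leading members of 29 gene lists, and passes over predicted genes. Of the genes the rule named, 3 are not reported here. Other list members named (such as Col3a1, Srxn1, Creld2 and Tnfaip3) were chosen after their values were seen. Members, lists and rules were chosen with earlier results of these data known. Correlations are Spearman's over genes read in at least 18 cells. No test was made and no cell was removed. With 24 cells, doublets were not called. Alternatives tried were other scalings, limits and pseudocounts, thinning to 270000 reads, and leaving out cells. The scripts' measures were tested on simulated data. Python 3.11.15, numpy 2.4.6, pandas 2.3.3 and scipy 1.17.1 were used.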

Additional observations from a re-analysis of the deposited data

How the results depend on the processing

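No paired analysis was possible because no result comes from a test and replicate numbers only name cells. Leaving out each cell in turn gave 761 to 823 genes read in every cell, 209 to 242 steady genes, 28 to 45 genes held mostly by 1 cell and 11.16% to 12.36% of variance on component 1. The number read in every cell was 398 with at least 10 reads, and 211 genes were held mostly by 1 cell with at least 100 reads, both by the construction of the limit. Component 1 held 10.33% with a pseudocount of 10 and 10.91% over genes read in at least 12 cells. The median of all pairs was 0.03798 with Pearson's correlation of log2(CPM + 1), 0.02713 over genes read in at least 12 cells, and 0.009023 without cells 9, 14, 18 and 21, a choice made after seeing the data. Pearson's correlation gave list medians of 0.1562 for matrix, 0.4281 for glycolysis, 0.1819 for respiratory chain, 0.05321 for translation factor, 0.1746 for proteasome, 0.06153 for splicing factor and 0.01568 for cell cycle genes, and changed the sign for heat shock genes (-0.000363). Without the 4 cells they were 0.1818 for chemokine and cytokine, 0.1383 for heat shock and 0.1275 for glycolysis genes. Those for respiratory chain, proteasome and immediate early genes were then 0.07068, 0.09023 and -0.01506. Leaving out 1 cell took immediate early genes from -0.01887 to 0.09745 and niche genes from -0.02143 to 0.09879. The cause was not tested. The steady count was 220 when scaled to listed reads, 202 thinned, 206 with a mean of at least 50 CPM and 298 without the 4 cells. Of 241 named genes 30 had a mean over 1.5 times that without their top cell. Depth limits low genes, since 3 reads stand for 4.30 CPM in cell 21 and 7.15 CPM in cell 9.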
